A study of Homo sapiens with 7 samples.

Results

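The 10 genes described here encode collagens and proteins that bind, cross-link or accompany them in the extracellular matrix: COL1A1, COL1A2, COL3A1, COL5A1, COL5A2, COL6A3, FN1, SPARC, LOX and POSTN. They were chosen by name, through the array probes whose gene label is one of these symbols, together with the 250-kb windows of the genome that hold those probes. All 10 had at least 1 probe. They make up 10 of 24641 named genes with a usable probe, 63 of 169544 probes on the larger array design, and 12 windows, of which 11 were among the 8913 windows measured on every array. The measurement was replication timing, the point in S phase at which a stretch of DNA is copied.

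A total of 7 Agilent arrays, each with both colours, were made from 2 human cell lines. K562 is a chronic myelogenous leukaemia line that grows in suspension, and U2OS is an adherent osteosarcoma line. K562 was represented by 3 arrays: 1 labelled with a new cell sorting method, 1 with the old one, and 1 on a smaller design labelled 44k. U2OS was represented by 4 arrays, 2 labelled manual and 2 automated, and the labels do not say which step was done by hand or by machine. In every sample the cells took up BrdU at 50 µM for 2 h, 80000 propidium iodide-stained cells were sorted into early and late fractions of S phase, and the BrdU-labelled DNA was immunoprecipitated and amplified. Early DNA carried Cy3 and late DNA carried Cy5 throughout, and the dyes were never exchanged, so dye and fraction cannot be told apart. Both lines are untreated and unmodified as far as the labels say, and nothing says that the arrays of a line came from separate cultures, so p-values measure only the spread between these arrays, which may be technical.

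Values are log2 of early over late signal with the median of each array set to 0. A positive value means that a locus gave relatively more signal in the early fraction, and a negative value relatively more in the late fraction. A value near 0 cannot tell mid-S replication from a mix of early and late cells. A difference of 1 corresponds to a 2-fold change of the early-to-late ratio.

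The arrays differed in scale and brightness. The SD over the 8913 windows ran from 0.54 to 0.55 on the manual arrays and from 0.96 to 1.02 on the automated ones, and it was 0.61, 0.91 and 1.26 on the old-sorting, 44k and new-sorting K562 arrays. Median green signal above the negative-control spots ran from 30.5 to 196 units. Across arrays, 77.8% to 100% of the probes of the 10 genes on each array were well above background in at least 1 colour. Every value is a ratio and so rests on both colours. Over all probes, the lowest shares well above background in a single colour were 8.83% (red, 44k), 40.3% (red, manual 2) and 44.8% (green, old sorting). No slide held both cell lines, so cell line and slide cannot be told apart. As a check of the labels, 8 probes (6 on the 44k design) in CDKN2A and MTAP, a region known to be deleted in K562, gave summed signal of -2.60%, 3.61% and 12.5% of the chromosome 9 median on the K562 arrays and 48.1% to 87.6% on the U2OS arrays. BMP1, the early control of the study's qPCR, was positive on 6 of 7 arrays (-2.0 on the 44k array), and the late control DPPA2 was negative on all 7.

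Large domains of the genome replicate together, early domains tending to be gene-rich and active and late domains gene-poor or silent. Many genes that are used in one cell type only lie in domains whose timing differs between cell types. Fibrillar collagens form the ropes of connective tissue: type I is built from the chains of COL1A1 and COL1A2, type III from COL3A1, and type V, which starts and limits fibril growth, from COL5A1 and COL5A2. COL6A3 encodes a chain of the beaded microfibrils of type VI collagen. FN1 encodes fibronectin, the adhesive glycoprotein read by integrins, LOX encodes lysyl oxidase, which cross-links collagen and elastin, and SPARC and POSTN encode the collagen-binding matricellular proteins osteonectin and periostin.

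The arrays read these genes through short stretches of DNA, and the number of probes per gene ran from 1 to 17. COL5A1 had 17 probes on the larger design, COL5A2 11, COL6A3 9, COL3A1 and FN1 7 each, COL1A2 4, SPARC and POSTN 3 each, and COL1A1 and LOX 1 each. Collagen chains repeat a glycine at regular steps, so their exons carry GG at steps of 9 bases. The motif GGNNNNNNNGGNNNNNNNGG, searched on both strands, occurred in 0.35% of all 169544 probes and in 2 of the 63 probes of these genes. Both are printed because they show the collagen repeat itself under a timing probe. The capitals mark the repeated GG, or CC where the probe is the complement of the coding strand. Coordinates are on hg19. The COL1A2 probe is at chr7:94047784-94047837 and the COL5A2 probe at chr2:189925433-189925490.
COL1A2: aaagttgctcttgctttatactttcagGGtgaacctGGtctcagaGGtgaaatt
COL5A2: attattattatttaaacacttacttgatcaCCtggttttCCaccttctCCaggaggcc

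COL1A1 and LOX rest on the 1 probe each that is printed next, at chr17:48269574-48269629 and chr5:121405729-121405781, so their gene values have no second probe to check them.
COL1A1: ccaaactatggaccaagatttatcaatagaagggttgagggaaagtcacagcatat
LOX: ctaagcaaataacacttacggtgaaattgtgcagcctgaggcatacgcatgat

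The last set frames a gene along which timing in K562 went from late to early. COL6A3 lies on the minus strand, and these are its outermost probes, at chr2:238234132-238234191 on the 3′ side and chr2:238322652-238322705 on the 5′ side. The former was late in K562 and early in U2OS, and at the latter the lines overlapped.
COL6A3 3′ side: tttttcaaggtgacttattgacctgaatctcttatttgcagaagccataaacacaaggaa
COL6A3 5′ side: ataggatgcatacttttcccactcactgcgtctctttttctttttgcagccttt

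Between the cell lines, 3 of the 11 windows were called different, meaning that limma gave an adjusted p below 0.05 and the means were at least 1 apart. The COL5A1 window and the 3′-side window of COL6A3 replicated later in K562, and the 3′-side window of FN1 replicated earlier in K562. By the same rule 13.1% of all 8913 windows were called, 8.82% later and 4.26% earlier in K562. The K562 and U2OS arrays did not overlap in 7 of the 11 windows, against 30.1% of all windows. The median difference, K562 minus U2OS, was -0.26 over the 11 windows and -0.13 over all windows. The mean of one line was positive and that of the other negative in 4 of the 11, against 18.9% of all windows. Among all called windows 32.6% were earlier in K562. This share was 44.3% with mean centring, 41.5% with loess, 46.8% with the deposited log ratio and 24.6% without the 44k array. The called windows of these genes were the same 3 with mean centring and with loess.

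**Figure D1:**
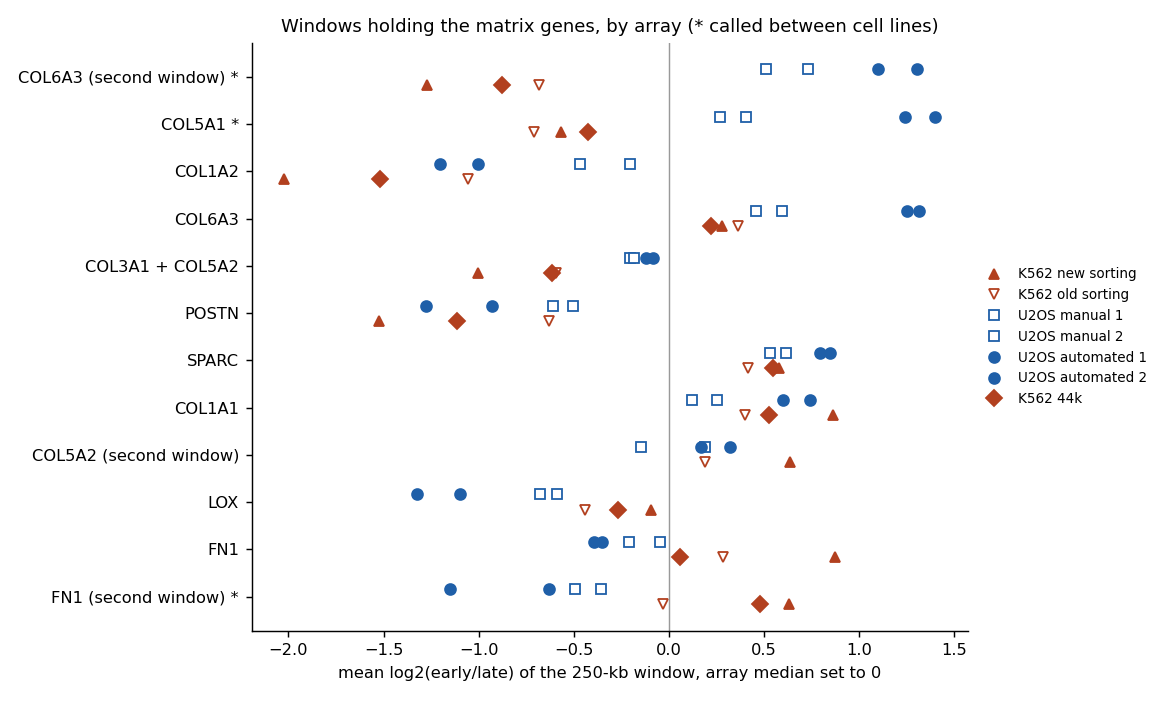
Mean log2(early/late) of each 250-kb window that holds the 10 genes (x axis, array median set to 0), 1 symbol per array, K562 in red and U2OS in blue, ordered by the difference. An asterisk marks a called window. In the COL5A1 window and the COL6A3 second (3′-side) window every K562 array is below 0 and every U2OS array above 0. The COL5A2 second window lacks a 44k value.

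COL6A3 crossed from late to early replication within its own length in K562 and was early on average throughout in U2OS. Its 3′-side window, chr2:238000001-238250000, gave -1.27 on the new-sorting, -0.68 on the old-sorting and -0.88 on the 44k array of K562. The manual U2OS arrays gave 0.73 and 0.51, and the automated ones 1.31 and 1.1. The lines did not overlap, and they lay on opposite sides of 0. The K562 mean was -0.94 ± 0.30 (SD, n = 3) and the U2OS mean 0.91 ± 0.36 (SD, n = 4), a difference of -1.85 ± 0.25 (SE, limma adjusted p = 0.000619). The call held in all 16 alternatives with 250-kb windows, with differences from -2.72 to -1.35. This window ranked at percentile 29.2 of all windows in K562 and 93.8 in U2OS.

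The next window, chr2:238250001-238500000, holds most of the COL6A3 probes and the 5′ end of the gene. It was positive on all 7 arrays, at 0.28, 0.36 and 0.22 in K562 and 0.59, 0.46, 1.32 and 1.25 in U2OS (manual, then automated). The K562 arrays were all below the U2OS arrays, and the difference was -0.62 ± 0.25 (SE, limma adjusted p = 0.112), which did not pass. It passed with normexp offset 0 (-1.03, limma adjusted p = 0.00727) and with the deposited log ratio (-1.24, limma adjusted p = 0.00215). At other window sizes the gene's main window was a different stretch, which reached into the adjoining called window. That stretch passed with 100-kb (-1.39, limma adjusted p = 0.0152) and 500-kb windows (-1.02, limma adjusted p = 0.0182). These values therefore cannot tell whether the 5′ part alone passes at those sizes.

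The single probes show where the change lies. In K562, mean values over the 2 larger arrays were -0.81 and -1.10 at the outermost probes of the 3′ side and 0.59 at the 5′-most probe, and they rose with position (Spearman rho 0.82 over 9 probes, a description). The probes between gave -0.72, -0.21, -0.39, -0.26, 0.24 and -0.30. Most of the gene's own probes in the main window were thus negative in K562, although the window as a whole was positive. The 3 probes nearest the 5′ end averaged 0.18. In U2OS the 9 probes lay between 0.21 and 1.29, with rho 0.17. Both K562 arrays were below all 4 U2OS arrays at 8 of the 9 probes, against 15.3% of all probes of the larger design. The probe that overlapped is the 5′-most one printed above, at 0.96 and 0.21 in K562 and -0.52, 0.19, 0.46 and 0.71 in U2OS. The gene mean was called later in K562, at -1.05 ± 0.26 (SE, limma adjusted p = 0.0224). This call was lost in 7 of 16 alternatives, among them leaving out the new-sorting array (-0.94, limma adjusted p = 0.0903), automated 1 (-0.98, limma adjusted p = 0.0652) or automated 2 (-1.0, limma adjusted p = 0.0784). On the 44k array the gene mean rests on 3 of the probes and was 0.13, against -0.39 and -0.27 on the other K562 arrays.

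**Figure D2:**
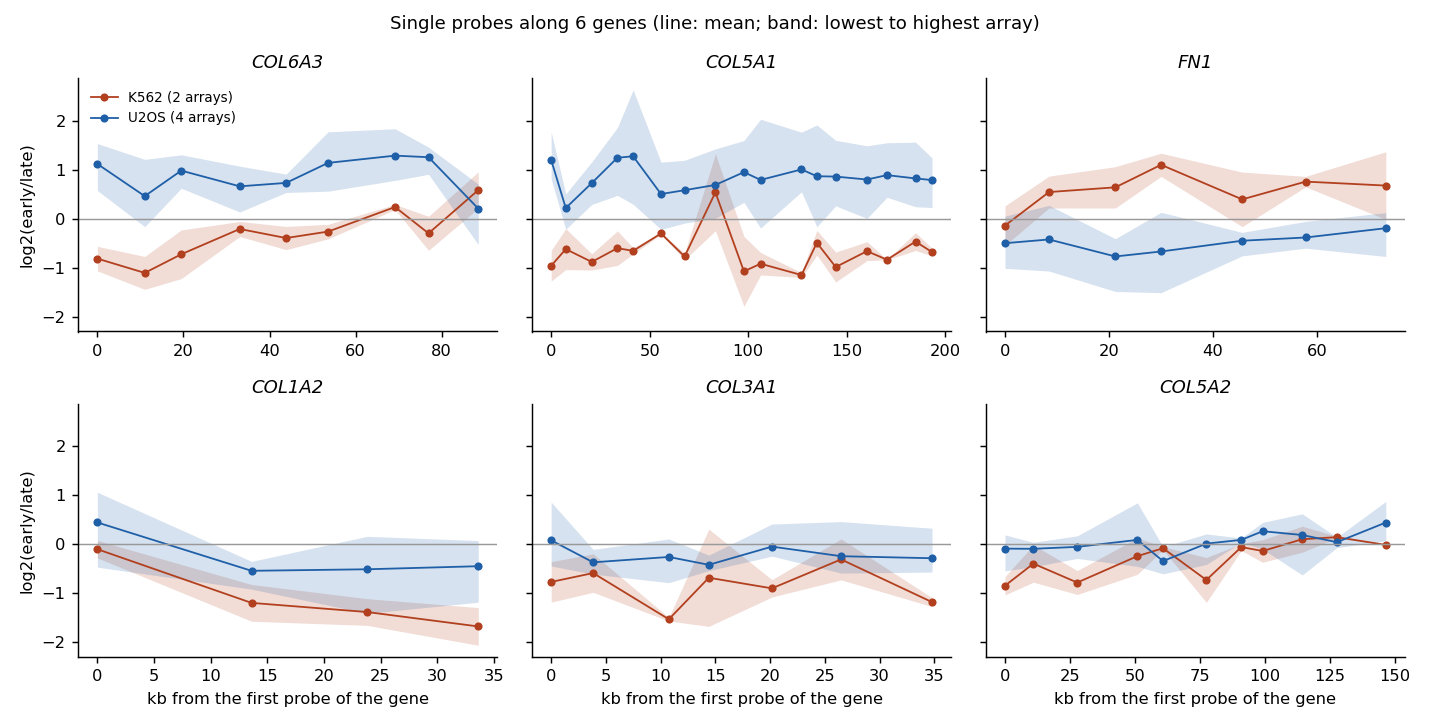
Log2(early/late) of single probes (y axis) against the distance in kb from the gene's lowest-coordinate probe (x axis) for 6 genes on the larger design. Lines join the means and bands run from the lowest to the highest array, for 2 K562 arrays (red) and 4 U2OS arrays (blue). COL6A3 in K562 climbs from -0.81 to 0.59, at COL5A1 the arrays of the lines lie apart at 15 of 17 probes, and FN1 is the gene with K562 above U2OS.

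The late stretch at COL6A3 in K562 reached beyond the gene on its 3′ side. Windows centred 500 and 1000 kb to that side of the main window had K562 means of -1.0 ± 0.41 and -0.90 ± 0.24 (SD, n = 3) against U2OS means of 1.04 ± 0.33 and 0.69 ± 0.43 (SD, n = 4), and both were called (limma adjusted p = 0.000474 and 0.00157). The run of windows with a difference of at least 1 spanned 1000 kb, chr2:237250001-238250000, with 1 window lacking enough probes and bridged. Over all windows in such runs the median length was 750 kb. The run ended inside COL6A3, at the edge of a 250-kb window, which is not the end of the contrast in the gene. On the larger design the gene's own probes beyond that edge differed by -1.71 to -0.87, except the 5′-most one at 0.38. COPS8, a subunit gene of the COP9 signalosome with probes in the 3′-side window, had a difference of -2.16 ± 0.26 (SE, limma adjusted p = 0.000867). MLPH and RAB17, trafficking genes in the window of the 5′ end, had -0.46 and -0.32 and were not called.

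COL5A1 was late in K562 at all but 1 of its 17 probes and early in U2OS at every one, by the means. Its window, chr9:137500001-137750000, gave -0.57, -0.71 and -0.43 on the new-sorting, old-sorting and 44k arrays of K562. The manual U2OS arrays gave 0.40 and 0.27, and the automated ones 1.40 and 1.24. All K562 arrays were negative and all U2OS arrays positive. The means were -0.57 ± 0.14 (SD, n = 3) and 0.83 ± 0.57 (SD, n = 4), and the difference was -1.40 ± 0.29 (SE, limma adjusted p = 0.00601). The call was lost in 1 of 19 alternatives, the 100-kb windows on 6 arrays (-1.51, limma adjusted p = 0.0520).

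The 17 COL5A1 probes on the larger design span chr9:137541158-137734573, and 15 of them had both K562 arrays below all U2OS arrays. K562 means ran from -1.15 to 0.54 and U2OS means from 0.22 to 1.28. Position along the gene carried no trend in either line (Spearman rho -0.029 in K562 and 0.025 in U2OS over 17 probes, a description). The gene mean differed by -1.43 ± 0.32 (SE, limma adjusted p = 0.0151). That call was lost without the new-sorting array (-1.41, limma adjusted p = 0.0825) and without automated 2 (-1.29, limma adjusted p = 0.0508).

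The contrast at COL5A1 was narrow. The adjoining 250-kb window on the higher-coordinate side was also late in K562, at -0.62 ± 0.10 (SD, n = 3), and called (difference -1.12, limma adjusted p = 0.0113). The window after it had means of 0.08 in K562 and 0.02 in U2OS. On the other side of the gene K562 stood at 0.05 ± 0.24 (SD, n = 3) and U2OS at 0.68 ± 0.64 (SD, n = 4). The difference run was therefore 500 kb long, and from 750 kb outward both lines were positive on average on both sides, out to the 2000 kb examined.

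FN1 went the other way. Its 3′-side window, chr2:216000001-216250000, gave 0.63, -0.03 and 0.48 on the new-sorting, old-sorting and 44k arrays of K562. The manual U2OS arrays gave -0.49 and -0.36, and the automated ones -1.15 and -0.63. K562 was above U2OS throughout, though the old-sorting array was close to 0. The means were 0.36 ± 0.35 (SD, n = 3) and -0.66 ± 0.35 (SD, n = 4), and the difference was 1.02 ± 0.25 (SE, limma adjusted p = 0.0143), just past the size limit of 1. The call was lost in 5 of 17 alternatives. Without background correction it was 0.86, with all arrays scaled to the same spread 0.91, and without the new-sorting, 44k or automated 1 array it was 0.88, 0.96 and 0.85.

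The main FN1 window, chr2:216250001-216500000, had values of 0.87, 0.29 and 0.06 in K562 and -0.21, -0.04, -0.40 and -0.35 in U2OS. The groups did not overlap, but the difference of 0.66 ± 0.23 (SE, limma adjusted p = 0.0698) did not pass. The difference of the gene means, 0.85 ± 0.31 (SE, limma adjusted p = 0.114), did not pass either. The FN1 gene mean was 0.96, 0.18 and -0.045 on the new-sorting, old-sorting and 44k arrays, the last from 3 probes. Of these, 1 (at -0.61) was read on the 44k array only, and the shared ones gave -0.36 and 0.84 there. Both larger K562 arrays were above all U2OS arrays at 4 of the 7 FN1 probes, against 10.5% of all probes of the larger design. They were below all U2OS arrays at none of the 7. ATIC, a purine synthesis gene in the 3′-side window, had a difference of 1.01 ± 0.29 (SE, limma adjusted p = 0.0444).

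FN1 sits on a slope from late to early in both lines, displaced between them. A window 1000 kb to the 3′ side was late in both, K562 at -1.20 ± 0.46 (SD, n = 3) and U2OS at -1.23 ± 0.37 (SD, n = 4), and a window 500 kb to the 5′ side was early in both, at 0.69 ± 0.24 and 0.65 ± 0.12. Between them K562 crossed 0 about 2 windows nearer to the late side: it was positive from the 3′-side FN1 window on, and U2OS only from the window beyond the gene's 5′ end, at 0.08 ± 0.14 (SD, n = 4).

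**Figure D3:**
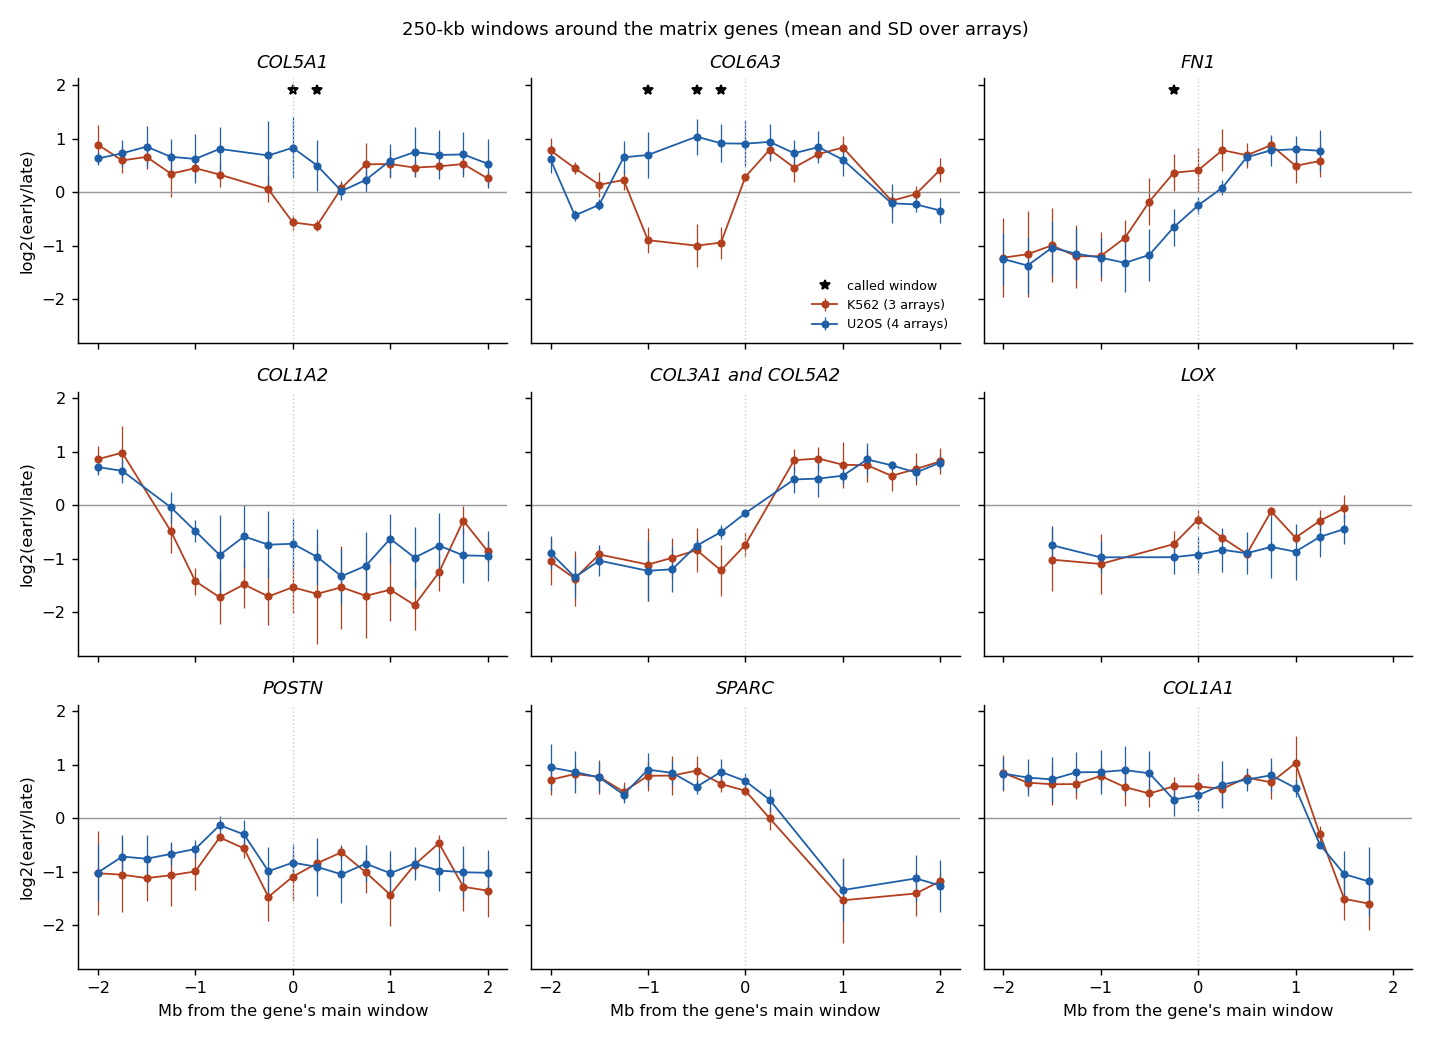
Mean log2(early/late) with SD over arrays (y axis) of 250-kb windows by distance in Mb from each gene's main window (x axis), K562 in red (3 arrays) and U2OS in blue (4 arrays); stars mark called windows. The K562 dip at COL6A3 holds 3 called windows, that at COL5A1 2, and the FN1 slope 1; the other panels hold none.

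The main windows of the type I and type III collagen genes had means on the same side of 0 in both lines. The type I genes lie in windows of opposite sign. COL1A1, in the early window chr17:48250001-48500000, gave 0.86, 0.40 and 0.53 in K562 and 0.26, 0.12, 0.60 and 0.74 in U2OS. The groups overlapped, with a difference of 0.17 ± 0.23 (SE, limma adjusted p = 0.693). It was 0.034 without the new-sorting array and 0.27 without automated 2. COL1A2, in the late window chr7:94000001-94250000, gave -2.02, -1.06 and -1.52 in K562 and -0.47, -0.20, -1.21 and -1.0 in U2OS. The groups overlapped, since 1 automated U2OS array lay within the K562 range.

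The COL1A2 difference was -0.81 ± 0.30 (SE, limma adjusted p = 0.0798), which did not pass, and without the old-sorting array it was -1.05 (limma adjusted p = 0.0196). Its window stood at percentile 6.93 of all windows in K562 and 27.1 in U2OS. Along the gene the mean fell from -0.10 at the probe nearest the 5′ end to -1.68 at the far probe in K562. In U2OS it was 0.44 at the former and between -0.55 and -0.45 at the other probes. CASD1 and SGCE, neighbours in this window, had differences of -1.05 and -0.83 and were not called.

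COL3A1 and COL5A2 lie tail to tail on chromosome 2 and share the window chr2:189750001-190000000. It gave -1.0, -0.60 and -0.61 in K562 and -0.20, -0.18, -0.12 and -0.08 in U2OS. The groups did not overlap and all 7 values were negative. The difference was -0.59 ± 0.20 (SE, limma adjusted p = 0.0535). Both K562 arrays were below all U2OS arrays at 3 of 7 COL3A1 probes and 4 of 11 COL5A2 probes.

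COL5A2, on the minus strand, extends into the next window, chr2:190000001-190250000, which the 44k array covers with 1 probe and which was therefore not in the test. There the larger K562 arrays gave 0.64 and 0.19 and the U2OS arrays -0.15, 0.19, 0.17 and 0.32. The 2 lines overlapped. Probe values rose from the 3′ to the 5′ end in both lines (Spearman rho 0.86 in K562 and 0.76 in U2OS over 11 probes, a description), and the window 500 kb beyond the shared one was early in both, at 0.84 ± 0.21 (SD, n = 3) and 0.48 ± 0.26 (SD, n = 4). The 2 genes thus occupy the flank of a late domain in both lines.

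None of the windows of the remaining 3 genes was called. SPARC was early on all arrays, at 0.58, 0.42 and 0.55 in K562 and 0.53, 0.62, 0.79 and 0.85 in U2OS, and the difference was -0.18 ± 0.19 (SE, limma adjusted p = 0.590). POSTN was late on all arrays, at -1.53, -0.63 and -1.12 in K562 and -0.61, -0.50, -1.27 and -0.93 in U2OS, with a difference of -0.26 ± 0.27 (SE, limma adjusted p = 0.580). The POSTN difference was -0.045 without the new-sorting array and -0.49 without the old-sorting one. Both pairs of groups overlapped.

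LOX was late on all arrays and less so in K562. Its window, chr5:121250001-121500000, gave -0.09, -0.44 and -0.27 in K562 and -0.59, -0.68, -1.32 and -1.10 in U2OS. The groups did not overlap, and the difference was 0.66 ± 0.23 (SE, limma adjusted p = 0.0698). It passed with normexp offset 0 (1.03, limma adjusted p = 0.00511) and with the deposited log ratio (1.15, limma adjusted p = 0.00562). The LOX probe itself overlapped between the lines, at -0.36, -0.41 and -0.30 in K562 and -0.30, -0.52, -0.71 and -0.82 in U2OS. In this window SRFBP1 differed by 0.82 and ZNF474 by 0.95, and neither was called.

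By level, the mean of the windows in K562 ran from -1.53 at COL1A2 through POSTN, the COL6A3 3′ side, the window of COL3A1 and COL5A2, COL5A1, LOX, COL6A3, the FN1 3′ side, FN1 and SPARC to 0.60 at COL1A1. In U2OS it ran from -0.92 at LOX through POSTN, COL1A2, the FN1 3′ side, FN1, the window of COL3A1 and COL5A2, COL1A1, SPARC, COL5A1 and COL6A3 to 0.91 at the COL6A3 3′ side. In K562, 2 of the 10 steps between neighbours in this order were larger than the SD of both, from COL5A1 to LOX and from LOX to COL6A3. In U2OS, 2 of 10 were, from the FN1 3′ side to FN1 and from the window of COL3A1 and COL5A2 to COL1A1. The other steps did not exceed the larger SD of the neighbours. That SD includes the differences of scale between arrays, and neighbours were read on the same arrays. A step within it can therefore go the same way on every array of a line. This was so from COL1A2 to POSTN in K562 and from COL1A1 to SPARC in U2OS. The windows of COL1A2, POSTN and LOX and the shared window of COL3A1 and COL5A2 were negative, and those of COL1A1, SPARC and the 5′ part of COL6A3 positive, in both lines. For COL6A3 this holds for the window as a whole, since most of the gene's own probes in it were negative in K562. The gene mean of COL5A2, which reaches beyond the shared window, was -0.29 in K562 and 0.047 in U2OS.

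The width of the domain around each gene was taken as the run of neighbouring 250-kb windows with the sign of the gene's main window. On the mean profile of each line, the run was wider in U2OS for 5 of the 10 genes (COL5A1, COL6A3, FN1, SPARC and POSTN), against 47.6% of all windows. For POSTN the mean of the widths on single arrays went the other way, at 5583 ± 144 kb in K562 (SD, n = 3) and 5313 ± 1048 kb in U2OS (SD, n = 4). Over all windows the median run was 2000 kb in K562 and 2500 kb in U2OS. The point of 0 depends on the centring, and some runs end where windows lack probes: at both ends for LOX and at 1 end for COL1A1, COL3A1, COL5A2, POSTN, FN1 and SPARC in at least 1 line.

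COL5A1 had the largest contrast in width, as a description because its sign differs between the lines. It lay in a late run of 500 kb on the new-sorting array and 750 kb on both other K562 arrays, inside early DNA. In U2OS it lay in an early run of 15000 kb on both manual and 15250 kb on both automated arrays, but these runs covered different stretches. The window 500 kb to the higher-coordinate side was negative with manual handling (-0.07 and -0.16), which ended those runs. With automated handling it was positive (0.20 and 0.10), and the runs continued through it. The run of the U2OS mean profile was 17750 kb long. For FN1 the early run in K562 was 2000, 1500 and 2000 kb (new, old, 44k), and the late run in U2OS was 6500, 6000, 6250 and 6250 kb.

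For the 8 genes with 1 sign on all arrays, in 7 windows, widths were compared by a two-sided exact permutation test, for which 3 against 4 arrays allow no p below 0.0286. The early run around the main window of COL6A3 was 1750, 1250 and 1250 kb in K562 and 2500 kb on every U2OS array (exact p = 0.0286). The late run of COL3A1 and COL5A2 was 3500 kb on every K562 array and 2250 to 2500 kb in U2OS (exact p = 0.0286). The early run of SPARC was 3000 to 3250 kb in K562 and 3500 kb on every U2OS array (exact p = 0.0286). Adjusted over the 7 windows by Benjamini-Hochberg, each of these was 0.0667 in the exact test and did not pass. All 3 are at the smallest p the design allows, so the adjusted value depends only on how many windows reach it. Not passing is therefore no evidence that these widths are equal. COL1A1 had 4750 kb on all 7 arrays. LOX ran from 1750 to 2000 kb, COL1A2 from 3500 to 4750 kb and POSTN from 3750 to 6000 kb, with overlapping groups (exact p = 0.429, 0.371 and 1.0).

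**Figure D4:**
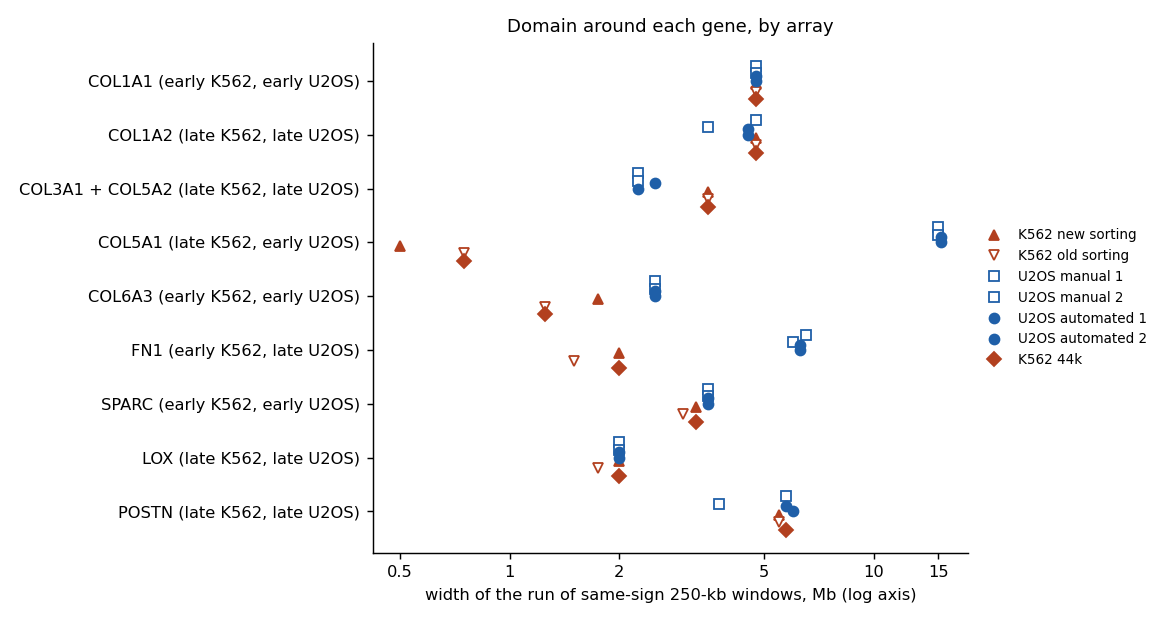
Width in Mb (log axis) of the run of same-sign 250-kb windows around each gene, 1 symbol per array, with the sign in each line's mean profile beside the name. COL5A1 runs from 0.5 to 0.75 Mb in K562 and at about 15 Mb in U2OS, and COL1A1 has 1 width on all arrays.

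Within U2OS, the automated arrays lay farther from 0 than the manual ones at nearly every gene. In a limma fit of the 4 U2OS arrays, 10 of the 11 windows had an adjusted p under 0.05, against 73.2% of all windows. The early windows were earlier and the late ones later on the automated arrays: COL5A1 differed by 0.98 ± 0.10 (SE, limma adjusted p = 4.44e-06), the main COL6A3 window by 0.76 ± 0.10, COL1A2 by -0.77 ± 0.12 and LOX by -0.58 ± 0.11. The window of COL3A1 and COL5A2, near 0 in U2OS, differed by 0.09 ± 0.10 (SE, limma adjusted p = 0.405). When all arrays were scaled to the same spread, 1 of the 11 windows passed, COL5A1 at 0.52 (limma adjusted p = 0.0211). SPARC, at 0.25 before scaling, then changed sign to -0.20 (limma adjusted p = 0.210). Both manual arrays shared a slide and each automated array had its own, so handling and slide cannot be told apart.

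Over the whole gene fit, 2 of the 10 genes were called, COL5A1 and COL6A3, both later in K562, against 8.52% of all 24641 genes. With the deposited log ratio FN1 was called too, earlier in K562 (1.30, limma adjusted p = 0.0416), and with normexp offset 0 COL1A2 was, later in K562 (-1.03, limma adjusted p = 0.0412). The median difference over the 10 was -0.42, against -0.10 over all genes. K562 was below U2OS at 7 of the 10, and above it at COL1A1, FN1 and LOX.

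A wider list of 104 other matrix genes gave 97 with probes, of which 17 (17.5%) were called, all 17 later in K562. Over all genes 5.55% were later and 2.97% earlier. The list's median difference was -0.29. Mean centring moved the median of all genes from -0.10 to 0.02 and the list's to -0.17, with 14 called later and 0 earlier. Earlier calls appeared with normexp offset 0 (3, beside 19 later), the deposited log ratio (2, beside 15), loess (1, beside 14) and without the old-sorting array (2, beside 20). The 17 genes lie at 12 loci when genes within 1 Mb are joined.

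The matrix-degrading proteases held the largest differences. MMP1, interstitial collagenase, gave -1.94 and -1.60 on the larger K562 arrays (no 44k probe) and 0.84, 1.15, 1.03 and 0.90 in U2OS, and its mean differed by -2.75 ± 0.29 (SE, limma adjusted p = 0.000545). MMP3, stromelysin, differed by -2.08 ± 0.29 and MMP13 by -1.57 ± 0.26. These 3 share a locus, and they are the 3 called of 8 degradation genes tested. The gelatinase MMP2 differed by -0.93 (limma adjusted p = 0.0412), short of the size limit, and the membrane-type MMP14 by -0.27, and neither was called. Among 11 matricellular genes 3 were called, led by TNC (tenascin C), at -2.18, -1.32 and -1.56 in K562 and 0.34, 0.66, 1.04 and 0.98 in U2OS, and its mean differed by -2.44 ± 0.29 (SE, limma adjusted p = 0.000795).

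Basement membrane genes had 5 of 18 called. Among these, NID2 (nidogen 2) differed by -1.85 and the laminin chains LAMA1, LAMC1 and LAMA3 by -1.70, -1.32 and -1.23. Of the remaining fibrillar collagens 1 of 5 was called, COL24A1 at -1.90 ± 0.27. Of the other collagens 3 of 11 were called, COL21A1, COL12A1 and COL22A1, from -1.75 to -1.09. COL6A1 and COL6A2, partner chains of COL6A3 at another locus, had differences of -0.21 and -0.66 and were not called. Among 9 receptors 2 were called, the collagen-binding integrin chains ITGA1 at -1.57 and ITGA2 at -1.35, which lie side by side. limma called none among 20 processing and cross-linking genes, 10 elastic fibre genes and 5 proteoglycans, of which 3, 2 and 2 had an unadjusted p under 0.05. The median differences of these groups were -0.14, 0.12 and -0.22. The proteoglycan gene VCAN (versican) differed by -0.93 (limma adjusted p = 0.0366), short of the size limit of 1.

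**Figure D5:**
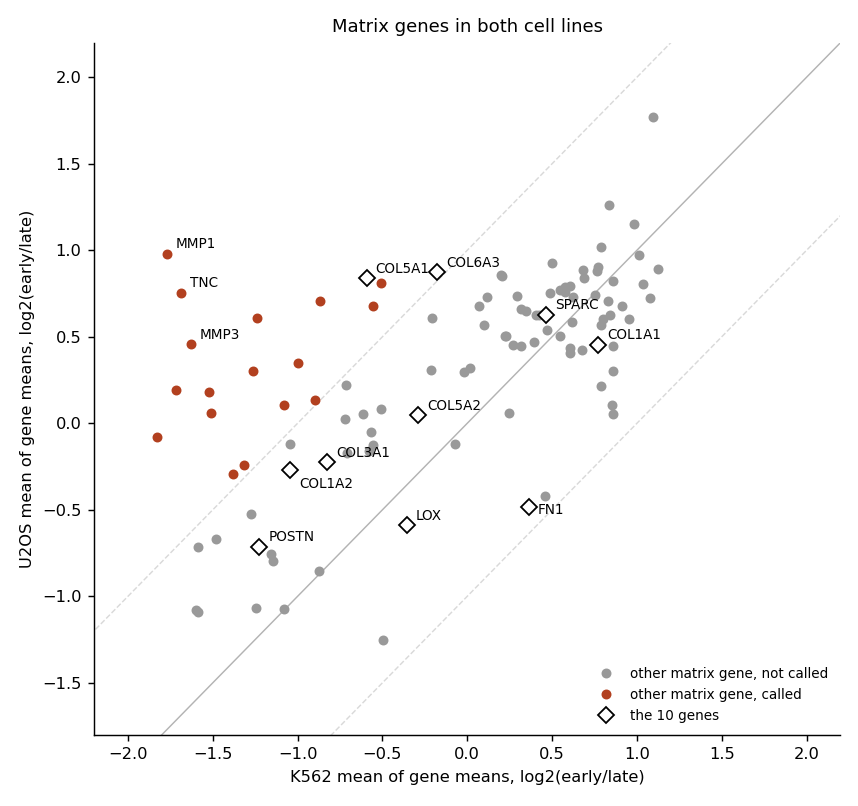
Mean over arrays of each gene's log2(early/late) in K562 (x axis) and U2OS (y axis). Diamonds are the 10 genes, red points the 17 called genes of the wider list and grey points its others; the solid line marks equality and dashed lines a difference of 1. All red points lie above the upper dashed line, and FN1 is the member farthest below equality.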

How the data were processed

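Each deposited array file is Agilent Feature Extraction output on hg19 (version 11.5.1.1 per the file headers; 9.1 per the submitters' processing notes). It holds mean and background intensity per spot and colour, as deposited, and the authors' log10 ratio of red over green, used here with its sign turned as an alternative. The main values used the intensities: limma's normexp with offset 50, log2 of green over red, flagged spots left out, array medians set to 0, repeated probes averaged. Windows of 250 kb needed 3 probes on all 7 arrays. Gene means used the arrays that carry a probe. Cell lines (3 against 4 arrays) and, within U2OS, automated against manual (2 against 2) were compared with limma 3.58.1 in R 4.3.3 (lmFit, eBayes) with Benjamini-Hochberg adjustment over all windows or genes, tested on simulated data. The members and lists were chosen with earlier results of these data known. Named were the 10 members, the annotated neighbours in their windows, the 3 largest called differences per direction in the wider list, and BMP1 and DPPA2; further list genes were chosen after their values were seen. Same-numbered U2OS arrays did not deviate together (correlation of deviations 8.33e-06), so the numbers do not pair arrays. The number of arrays limits the precision. Alternatives covered background correction, centring, scaling, spot filters, window size, probe minimum, size limit, leaving out each array and, chosen after seeing the data, averaging both manual arrays of the shared slide. Exon and intron positions were not used here, and 1 gene of the wider list is not reported here by name.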

Additional observations from a re-analysis of the deposited data

Results flagged for a closer look

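Among the 4 U2OS arrays, 1 of 22 window and gene values had an array far from the others: the gene mean of COL3A1 was 0.051 on automated 2, against -0.33, -0.32 and -0.29 on manual 1, manual 2 and automated 1. Chance flags about 1 in 20 such groups.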

How the results depend on the processing

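No difference between the cell lines at these windows and genes changed sign under any alternative run. Within U2OS, the handling difference of the SPARC window went from 0.25 to -0.20 with scaling to the same spread. For single windows and genes, 356 alternative values kept their side of the threshold, 15 lost a call and 9 gained one. The count of called windows, 3 of 11, was 5 with normexp offset 0 and with the deposited log ratio, and 2 to 4 with an array left out. The count of called genes, 2 of 10, was 1 without background correction, with loess, with mean centring and without dim probes (8 genes left), 3 with normexp offset 0 (adding COL1A2) and with the deposited log ratio (adding FN1, earlier in K562), and 0 to 2 with an array left out; it was 0 without the K562 new-sorting array or without automated 2, and 1 without automated 1. The count in the wider list, 17 of 97, was 10 without background correction and 13 to 22 with an array left out. The count of genes with a wider domain in U2OS, 5, stayed between 4 and 6. The handling count, 10 of 11, was 6 with normexp offset 0, 2 with the deposited log ratio, 1 with scaling to the same spread, 10 with the replicate number as a block, 1 with that block and scaling together, and 7 to 9 with an array left out. Leaving out an array leaves 1 array in an arm of the handling fit, assumed to vary like the other arm. Over all windows the called share ran from 6.74% without background correction to 23.3% with the deposited log ratio, a change of over 1.5 times from 13.1%; over all genes it ran from 3.04% without the new-sorting array to 13.2% with the deposited log ratio. The causes were not tested. Averaging both manual arrays, added after seeing the data, gave 3 windows, 2 genes and 16 of the list. Dim arrays limit depth: on manual 2, 77.8% of these genes' probes were well above background in at least 1 colour. The 44k design held 30 of their probes, and 8.83% of all probes on that array were well above background in red.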
